A study of Homo sapiens with 19 samples.

Results

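Fibroblast growth factors (FGFs), their receptors and the feedback genes they switch on were followed through the earliest phase of the differentiation of a human embryonic stem cell line into brown adipocytes (BAs). The 10 genes were selected by symbol, and no measured value enters the rule. Earlier results of these data were, however, known when the genes were chosen. They comprise the 4 ligands FGF2, FGF4, FGF8 and FGF19, the 4 receptors FGFR1, FGFR2, FGFR3 and FGFR4, and the 2 feedback genes SPRY4 and DUSP6. They are 10 of the 20499 genes to which the RefSeq transcripts of the array were matched, and 15 probes measured them. For FGF2, FGFR1, FGFR2, FGFR3 and SPRY4 a second probe was present, and both are described.

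The line used, KhES-3, was grown per the labels on irradiated mouse fibroblasts in a medium with recombinant basic FGF, the protein encoded by FGF2. The methods of the study name a feeder-free culture instead, and which applies to these samples is not settled here. Cells were then placed in low-attachment dishes in a serum-free BA differentiation medium with IGF-II, BMP4, VEGFA, KITLG, FLT3LG and IL-6, and no FGF is listed among its components. A single sample was harvested at each of 19 times after the start of this BA induction. These were 3, 4, 6, 8, 10 and 12 h, then 14, 16, 20, 24, 28, 32 and 36 h, with 42 h, and lastly 48, 54, 60, 66 and 72 h. All 19 samples had been induced, so there was no uninduced control, and there were no replicates. Trends were therefore weighed against the scatter of arrays about the fitted line, and the spread between cultures is unknown.

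Each sample was measured on 1 array, and the 19 arrays lay on 3 slides. Times up to 12 h (6 arrays) shared the first slide. The second slide carried 14 to 42 h (8 arrays). The third slide, scanned on a later day, carried 48 to 72 h (5 arrays). A change between slides and a change between these times cannot be told apart, and changes within a slide are given for this reason. Signals were scaled to a common 75th percentile of 871, the 75th percentile of single arrays lying between 655 and 1003. Against the spike-in RNA, the control transcripts of the Agilent one-colour design, the 75th percentile was lowest at 66 and 72 h (-4.74 and -4.75 on the log2 scale, against -3.75 at 48 h). Late directions therefore depend on the scaling. Values with the spike-in RNA are given for some of them, and the cell type markers are given on the 75th percentile scale alone. The 6 embryonic stem cell markers measured (POU5F1, SOX2, NANOG, LIN28A, DNMT3B and ZFP42) were detected above background on every array. Summed over the 6, the signal ran from 470374 at 72 h to 672850 at 8 h, POU5F1 being the largest part. Between the 3 earliest and the 3 latest arrays POU5F1 went from 349263 to 279829 and DNMT3B from 181447 to 101131. ZFP42 went from 44263 to 24810 and LIN28A from 22593 to 18461. SOX2 hardly moved (24013 to 23737), and NANOG was higher late (30663 to 37373). Of the 5 fibroblast markers, COL1A1 and COL1A2 were well above background on all arrays, DCN on 9, and COL3A1 and POSTN on 1 and 2. From the 3 earliest to the 3 latest arrays, the summed primitive streak and mesoderm markers went from 542 to 943 (1536 at 66 h), those of endoderm from 2895 to 1479 and those of neuroectoderm from 647 to 262, SOX1 and NEUROG2 being above background on no array. In the streak list MESP1 (104 to 360) and TBX6 (47.4 to 119) rose most, and TBXT hardly moved (91.7 to 98.0). EOMES (188 to 160) and MIXL1 (107 to 77.6) were lower late. Among the endoderm markers AFP went from 1537 to 212, SOX17 from 813 to 692 and FOXA2 from 297 to 204. GATA6 went up on this scale, from 220 to 274. The summed trophoblast markers (CGA, CGB3, GCM1 and KRT7) ranged from 6493 at 3 h to 13063 at 14 h, most of it KRT7 (7100 early, 11104 late). The part of these lists in the results below was not tested. In such bulk samples, fewer cells of a type and less RNA per cell cannot be told apart.

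FGF ligands bind receptor tyrosine kinases together with heparan sulphate chains on the cell surface. The receptors signal through adaptor proteins to RAS and the MAP kinases ERK1 and ERK2, which act on ETS transcription factors. Among the genes this pathway switches on are its own inhibitors: Sprouty proteins such as SPRY4 restrain the route from receptor to RAS, and DUSP6 is a phosphatase that removes the activating phosphates from ERK. Human embryonic stem cells are kept undifferentiated in culture with FGF2, and the transcripts of SPRY4 and DUSP6 are widely used as a readout of FGF and ERK activity.

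To investigate how these genes behaved over the 72 h, a straight line in hours was first fitted to the log2 signal of every probe well above background on at least 5 arrays. FGFR4 and SPRY4 rose, and FGF2 and FGF8 fell, at an adjusted p under 0.05 (limma, Benjamini-Hochberg adjustment over 32113 probes). Of all probes tested, 30.9% rose and 22.4% fell in the same fit, so 2 of 10 in each direction is no more than the arrays as a whole showed. Neither rise passed when the arrays were scaled to their median or to the spike-in RNA. The rise of SPRY4 was also lost without the array at 60, 66 or 72 h, and the fall of FGF2 without any 1 of 9 arrays. With the slide as a block, which leaves the changes within slides alone, no member rose or fell, whereas 4.71% of all probes rose and 4.47% fell. At an unadjusted p under 0.05, 1 member passed with the block, FGFR4 (slope 0.0081, standard error, SE, 0.0036, limma adjusted p = 0.168). With a cubic curve in hours, 8 of the 10 genes changed with time, all but FGF2 and DUSP6, close to the 76.8% of all probes that did so. The curvature alone, tested without the straight part after the data were seen, passed for 7 genes (FGF8, FGF19, FGFR1, FGFR2, FGFR3, FGFR4 and SPRY4), against 47.8% of all probes. With the slide as a block, the cubic curve passed for 6 genes (FGF8, FGF19, FGFR2, FGFR3, FGFR4 and SPRY4), against 31.6% of all probes. Whether the 10 genes differ from all probes in these counts was not tested, and FGF8 was not well above background on 6 arrays.

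Among the ligands, FGF2 (NM_002006) was the gene whose protein the culture medium of the stem cells supplied. Its brighter probe read 3704, 3635, 3679, 3446, 2658 and 3054 on the arrays from 3 to 12 h. From 14 to 42 h the same probe gave 3296, 4092, 3069, 2734, 2133, 2473, 3041 and 4666. From 48 to 72 h it gave 2927, 2949.8, 2465, 2135 and 2499.9. The signal thus had a trough at 28 h and its highest value at 42 h, just before the change of slide. Over all arrays its slope was -0.0070 log2 per hour (SE 0.0028, limma adjusted p = 0.0428), and the mean of the 3 latest arrays was 1.56-fold below that of the 3 earliest. The second probe of the same transcript did not share this fall, with a slope of -0.0010 (adjusted p = 0.851). It stood between 1363 and 1819.9 on the first slide, between 1510.2 and 3702 on the second and between 1474 and 2041 on the third. Both probes had their trough at 28 h and their peak at 42 h within the second slide.

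FGF4 (NM_002007), which is made by undifferentiated stem cells, had a signal of 394, 430.5, 336, 302, 249.6 and 262 from 3 to 12 h. It fell within these 6 arrays (slope -0.085 log2 per hour, SE 0.015, limma adjusted p = 0.0444), from 394 at 3 h to 262 at 12 h. On the second slide it moved between 224 and 395 from one array to the next, with no call. Its values at 48, 54, 60, 66 and 72 h were 375, 409, 377, 496 and 426, the highest of the series on this scale being that at 66 h. Over 72 h the slope was 0.0063 (adjusted p = 0.108). Scaled to the median or to the spike-in RNA, FGF4 missed the threshold in the first slide, with adjusted p = 0.0533 and 0.117. With the spike-in RNA its signal went down on the third slide, from 426 at 48 h to 242 at 72 h.

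FGF8 (NM_033163), a ligand of the gastrulating embryo, was near the detection limit. It was well above background on 13 arrays and not at 14, 36, 48, 54, 60 and 72 h. It read 104, 99.0, 111, 82.1, 61.5 and 58.8 from 3 to 12 h. Thereafter it lay between 22.7 and 61.5 on the second slide and between 12.8 and 45.7 on the third. The slope over all arrays was -0.0265 log2 per hour (SE 0.0061, adjusted p = 0.00125), but it runs through the 6 arrays that did not measure the gene. A fit with slides as blocks gave -0.0026 (adjusted p = 0.941). All 3 of the earliest arrays and 1 of the 3 latest were well above background, so no late fold is given here. On the third slide its slope was positive without a call (0.064, adjusted p = 0.139).

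FGF19 (NM_005117), an endocrine ligand that acts best on FGFR4 with a klotho co-receptor, had the largest fold change from 3 to 12 h among the 10 genes, with SPRY4 close to it (5.98 and 5.63-fold) and of much the same slope. From 3 to 12 h it gave 241, 162, 98.4, 57.7, 46.6 and 40.3, lower on every array than on the one before. The slope was -0.289 log2 per hour (SE 0.031, limma adjusted p = 0.0222) and the signal dropped 5.98-fold from 3 to 12 h. At 14 h (34.9) and 16 h (51.0) the spot was not well above background. From 20 to 42 h it read 76.1, 64.8, 75.1, 66.8, 72.2 and 53.9, and from 48 to 72 h 78.3, 96.2, 92.5, 106 and 75.1. The later values therefore stood above the trough and below the first 2 arrays, and a straight line over 72 h was flat (0.0013, adjusted p = 0.890). The cubic curve passed for FGF19 (adjusted p = 0.00920), also with the slide as a block (adjusted p = 0.0367).

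**Figure D1:**
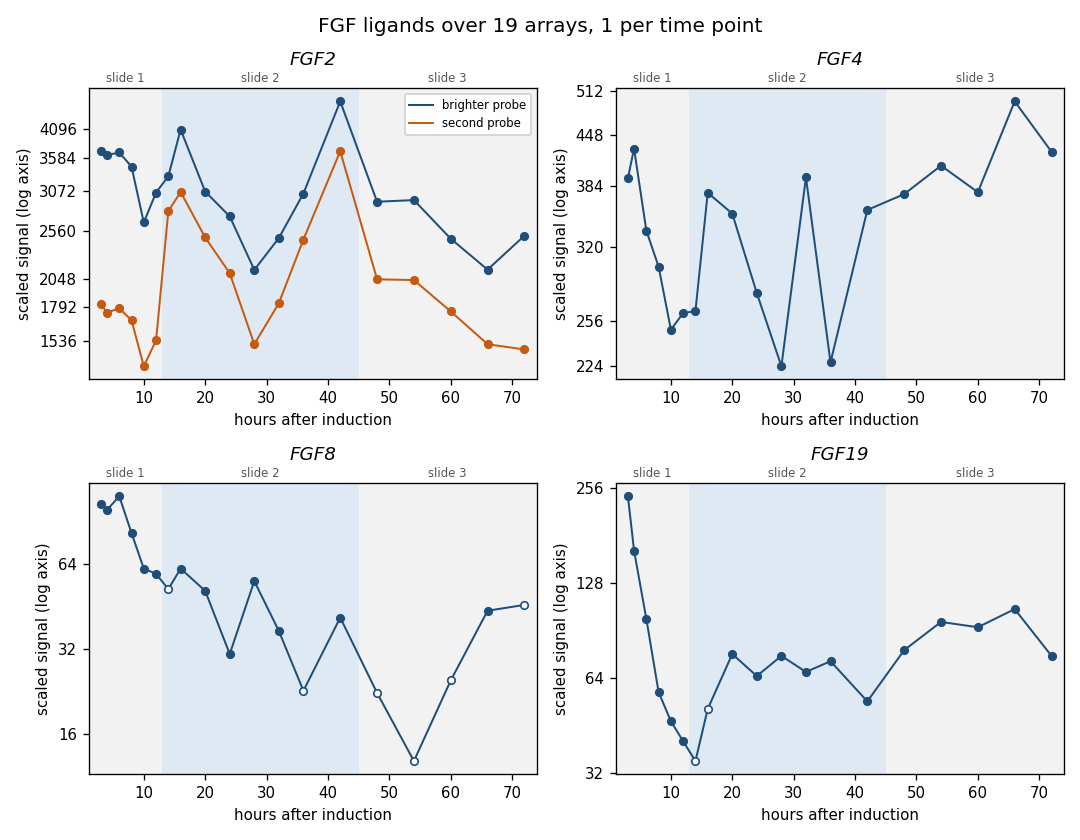
Scaled signal of the 4 ligands (vertical log axis) against hours after induction, 1 point per array, with the 3 slides shaded, open points for spots not well above background, and the second probe of FGF2 in orange. FGF19 drops from 241 at 3 h to 40.3 at 12 h, FGF8 is below background on 6 arrays from 14 h on, and the probes of FGF2 share a trough at 28 h and a peak at 42 h.

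Next, the receptors were examined. FGFR1, the main receptor of FGF2, was measured by a probe of transcript NM_023110 that read 11836, 12156, 11042, 10318, 11334 and 12227 on the first slide. All 8 arrays of the second slide were above those of the first, from 14503 at 16 h to 19212 at 32 h. The third slide gave 13507, 13239, 12595, 13641 and 14816. The cubic curve passed (adjusted p = 0.000657), though a fit with slides as blocks gave an adjusted p of 0.504, and the steps at the changes of slide were 0.32 from 12 to 14 h and -0.32 from 42 to 48 h on the log2 scale. The second probe, of transcript NM_001174066, read 1397 to 1814 on the first slide, 1194 to 1552 on the second and 1556 to 1934 on the third. The probes of FGFR1 thus went opposite ways between slides, and on the main scale neither had a call within any slide. Scaled to the spike-in RNA, both fell on the third slide (adjusted p = 0.0325 and 0.0205).

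FGFR2 (NM_022970) did not climb on the first slide (slope -0.0047 log2 per hour), stood higher up to 54 h and then dropped. Its signal was between 4602 and 5481 on the first slide and then 5475, 6572, 6808, 7032, 7682, 7169.8, 7761 and 7857 from 14 to 42 h. It reached 9466 at 48 h and 8843 at 54 h, and then read 5778, 4281 and 3941 on the last 3 arrays, that at 72 h being the lowest of the series. From 3 to 54 h FGFR2 rose (slope 0.0189, SE 0.0021, limma adjusted p = 5.11e-06), in a fit that spans the changes of slide. The share of all probes called in that fit is not given here, and it was made on the main scale alone. Over the last 5 arrays, those of slide 3, the slope was -0.060 log2 per hour (SE 0.0084), a 2.40-fold difference from 48 to 72 h, and at an adjusted p of 0.0501 it missed the threshold. That slope passed with the array median (adjusted p = 0.0382, FGFR2 being the 1 member that fell there against 3.93% of all probes) and with the spike-in RNA (adjusted p = 7.40e-07). The second probe of FGFR2 followed the same course, from 517 at 6 h to 1196 at 36 h and 483 at 72 h, and its slope within the second slide passed on the main scale (0.027 log2 per hour, adjusted p = 0.0362) but not with the median (adjusted p = 0.0608) or the spike-in RNA (adjusted p = 0.599). The brighter probe missed there (0.0148, adjusted p = 0.0849).

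FGFR3 (NM_000142) had the deepest trough among the receptors. It read 9646, 11947, 11886, 10163, 8849 and 7229 on the first slide. The second slide gave 4660.0, 4457, 3926, 3336, 3548, 3407, 3439 and 4602, on this scale all below every array of the first and the third. From 48 to 72 h FGFR3 was at 6493, 7797, 8272, 8562 and 8346. The highest signal, at 4 h, was 3.58-fold above the lowest, at 24 h, and the cubic curve passed with and without the slide as a block (adjusted p = 0.0220 and 7.30e-07). The steps at the changes of slide were -0.63 and 0.50 on the log2 scale, and no slope within a slide passed. With the spike-in RNA the same probe went from 7370 at 48 h to 4736 at 72 h, against 5071 at 14 h. On the main scale the second probe was also lowest on the second slide, its highest value being 399.7 (6 h), its lowest 74.9 (32 h) and its later maximum 256 (54 h).

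FGFR4 (NM_213647), the receptor of FGF19, had the smallest range of the 10 genes, its highest signal being 1.51-fold its lowest. Its signal stayed between 374 and 431 from 3 to 16 h. It was 424, 393, 450.4, 453, 522 and 493 from 20 to 42 h, and 529, 557, 565, 499 and 526 from 48 to 72 h. All 5 arrays of the third slide were above all 6 of the first. The slope was 0.0079 log2 per hour (SE 0.0013, limma adjusted p = 6.79e-05), with the 3 latest arrays 1.28-fold above the 3 earliest. This rise depends on the scaling: the slope was 0.0026 (adjusted p = 0.302) with the array median and -0.00061 (adjusted p = 0.921) with the spike-in RNA.

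**Figure D2:**
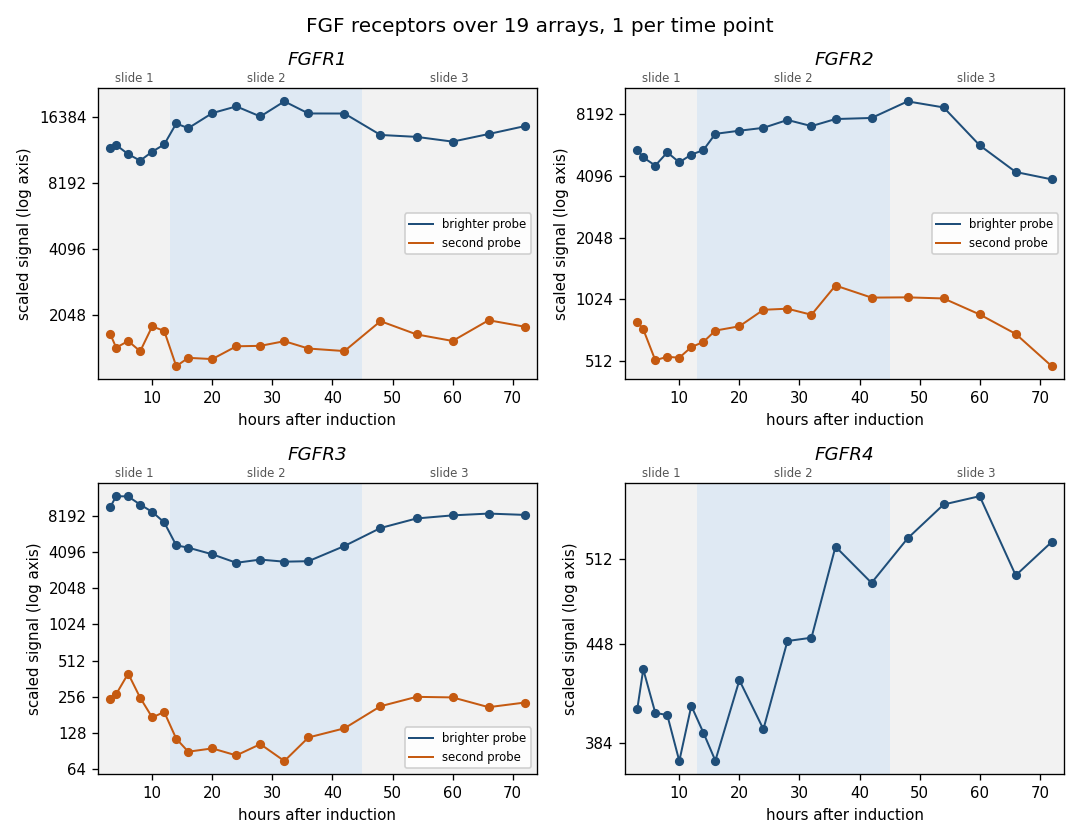
Scaled signal of the 4 receptors (vertical log axis) against hours after induction, 1 point per array, with the 3 slides shaded and second probes in orange. On this scale FGFR2 is highest at 48 h (9466) and is at 3941 at 72 h, FGFR3 is lowest on the second slide with both probes, and the probes of FGFR1 go opposite ways between slides.

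SPRY4 (NM_030964) and DUSP6 (NM_001946) are the inhibitors that the pathway itself switches on. The bases just before their RefSeq start sites (GRCh38.p14) are shown because ETS factors act on feedback genes through their promoters. RefSeq promoters were at hand for 6 of the 10 genes. Capitals mark matches, on either strand, to the letters CGGAA, the shorter of the ETS cores searched, or to the GC box GGGCGG. The promoter of SPRY4 lies at chr5:142324248-142324497 on the minus strand and that of DUSP6 at chr12:89352502-89352751 on the minus strand.
SPRY4: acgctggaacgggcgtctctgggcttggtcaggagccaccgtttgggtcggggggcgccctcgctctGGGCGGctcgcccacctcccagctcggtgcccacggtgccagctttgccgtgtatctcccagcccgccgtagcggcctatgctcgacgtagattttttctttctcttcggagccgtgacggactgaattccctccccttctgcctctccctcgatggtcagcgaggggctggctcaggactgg
DUSP6: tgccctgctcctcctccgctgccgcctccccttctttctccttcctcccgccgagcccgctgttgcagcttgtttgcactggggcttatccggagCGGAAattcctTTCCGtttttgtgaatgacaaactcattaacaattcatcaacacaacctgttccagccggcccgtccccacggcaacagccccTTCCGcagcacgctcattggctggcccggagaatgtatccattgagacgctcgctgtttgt
The DUSP6 window holds CGGAA 3 times, starting 155, 144 and 61 bases before the start site, and the SPRY4 window does not hold it. Of 35116 promoter windows of the same 250 bases, 30.3% hold CGGAA at least at 1 place. The longer core CCGGAA, in 14.5% of all windows, is in neither, and the GC box, in 42.6% of all windows, is in the SPRY4 window at 1 place. Neither window holds the AP-1 letters TGANTCA (6.57% of all windows) or a CArG box (1.16%). These matches are descriptions of letters and no measurement of binding was made here.

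SPRY4 had a fast drop followed by higher signals late in the series. The first 6 arrays gave 2889, 2086, 962, 606, 511 and 513. It fell within the first slide (slope -0.291 log2 per hour with an SE of 0.046, limma adjusted p = 0.0358), and the signal at 12 h was 5.63-fold below that at 3 h. On the second slide it read 529, 703, 713, 674, 944, 739, 986 and 932. On the third it read 1089, 1743, 2456, 2497 and 2812, the last value being close to the first on this scale. Scaled to the spike-in RNA, the signal was 3135 at 3 h and 1595 at 72 h. The slopes within the second slide (0.025 log2 per hour, adjusted p = 0.0687) and the third (0.054, adjusted p = 0.0693) missed the threshold. Over 72 h the slope was 0.0210 (SE 0.0077, adjusted p = 0.0274), a line that misses the drop, and the cubic curve passed with and without the slide as a block (adjusted p = 0.00217 and 6.72e-05). Scaled to the spike-in RNA, the third-slide slope was 0.0030 (95% interval -0.0354 to 0.0415, adjusted p = 0.887). The second, dim probe of SPRY4 had a shallower first-slide slope (-0.063, adjusted p = 0.211) and rose over 72 h (0.0138, adjusted p = 0.000166). That rise missed the threshold with the slide as a block (limma adjusted p = 0.124). With the spike-in RNA the dim probe read 99.3 at 48 h and 93.7 at 72 h.

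DUSP6 was more uneven. From 3 to 12 h it read 703, 554, 949, 427, 398 and 369, the array at 6 h standing above its neighbours. On the second slide the signal was 437, 748, 603, 402, 565, 409, 543 and 509.7. The last 5 arrays gave 607, 461, 592, 1103 and 836. On this scale the lowest value was that at 12 h and the highest that at 66 h, 2.99-fold apart. With the spike-in RNA the signal was 688 at 48 h and 475 at 72 h. On the main scale no trend in hours passed for DUSP6: its slope over 72 h was 0.0067 (SE 0.0044, adjusted p = 0.211), its slope in the first slide -0.112 (95% interval -0.220 to -0.0042, adjusted p = 0.191), and the cubic curve had an adjusted p of 0.0699. Scaled to the array median, the cubic curve passed for all 10 genes, DUSP6 and FGF2 included. The share of all probes passing on that scale is not given here. On the main scale it was 76.8%, so this count is not read as a trait of the 10 genes.

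**Figure D3:**
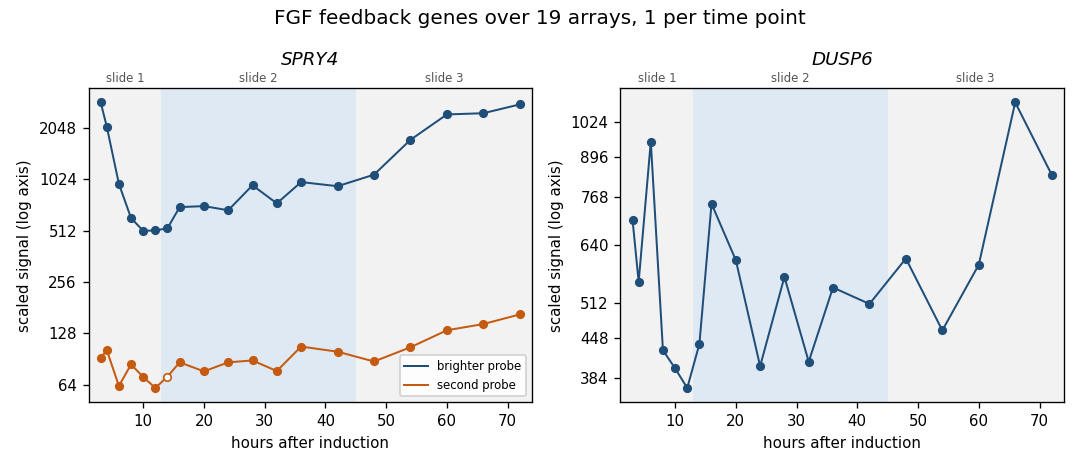
Scaled signal of SPRY4 (both probes) and DUSP6 (vertical log axis) against hours after induction, 1 point per array, with the 3 slides shaded and an open point for a spot not well above background. On this scale SPRY4 drops from 2889 at 3 h to 511 at 10 h and reads 2812 at 72 h (3135 and 1595 at 3 and 72 h when scaled to the spike-in RNA), and DUSP6 has its lowest signal at 12 h (369) and its highest at 66 h (1103).

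Because slide and time overlap, the changes within each slide were set side by side. On the first slide all 10 genes had a slope below 0, though those of FGFR1 and FGFR2 turned above 0 when single arrays were left out, and 46.8% of all probes had such a slope, and the median of the 10 slopes was -0.072 log2 per hour against 0.0026 for all probes. FGF4, FGF19 and SPRY4 fell at an adjusted p under 0.05, while 2.4% of all probes fell and 2.25% rose. The count depends on the scaling. With the array median FGF8, FGF19 and SPRY4 fell (2.85% of all probes), and with the spike-in RNA FGF19 alone fell (adjusted p = 0.0366, 0.641% of all probes), SPRY4 having an adjusted p of 0.0520. It also depends on having all 6 arrays. Without 1 of them in turn, the slope of SPRY4 stayed between -0.372 and -0.248 but its adjusted p lay between 0.0557 and 0.128. That of FGF19 stayed between -0.341 and -0.255 with an adjusted p between 0.0486 and 0.0936, and passed without the 6 or the 8 h array. For FGF4 the slope was between -0.105 and -0.073 and no omission left it called. The share of all probes called without 1 array is not given here.

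On the second slide no member passed (limma, 3 members at an unadjusted p under 0.05), while 4.09% of all probes rose and 2.45% fell. A positive slope was found there for 6 members, the largest being that of SPRY4. On the third slide no member passed either (limma, 3 members at an unadjusted p under 0.05), while 0.352% of all probes rose and 0.691% fell. With the spike-in RNA, FGF2, FGF19, FGFR1, FGFR2 and FGFR4 fell on the third slide, but 65.8% of all probes fell with them. The median slope of all probes on that scale was -0.050 log2 per hour, and of the 5 genes FGFR2 (-0.111) was the farthest below it.

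**Figure D4:**
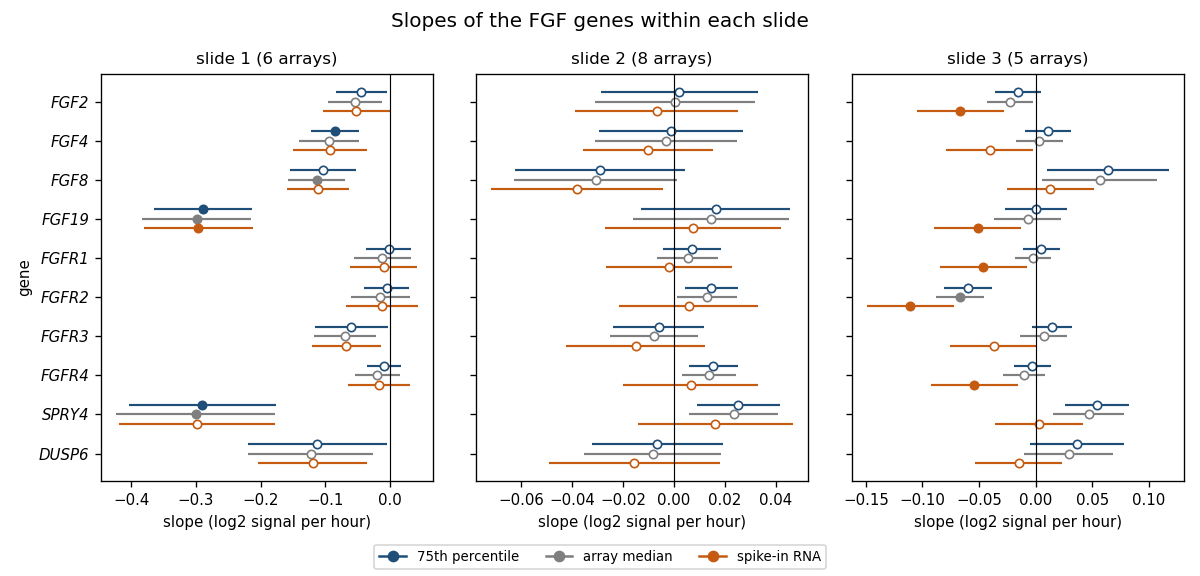
Slope of the log2 signal on hours within each slide (horizontal axis, with 95% intervals) for the 10 genes under 3 scalings, filled points having an adjusted p under 0.05. On the first slide every slope is below 0 and those of FGF19 and SPRY4 lie near -0.29, and on the third slide the spike-in scaling moves all 10 genes downward.

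To ask whether the feedback genes moved with the ligands, 5 pairs of genes measured on all 19 arrays were correlated (two-sided permutation tests of 100000 resamples, adjusted over the 5 pairs). For SPRY4 and FGF4, Pearson's r was 0.681 (permutation p = 0.00135, adjusted p = 0.00675). Their Spearman's rho was 0.686 (permutation p = 0.00153, adjusted p = 0.00383). Leaving out 3 and 72 h gave r = 0.652. On slide 1 alone the pair reached r = 0.936 over 6 arrays (exact permutation p = 0.00972), whereas on slide 2 it had r = -0.240 over 8 arrays (exact permutation p = 0.568). SPRY4 and DUSP6 had r = 0.617 (permutation p = 0.00518, adjusted p = 0.0130) and rho = 0.702 (p = 0.00103, adjusted p = 0.00383), and r = 0.655 without the 6 and 66 h arrays. Within slides that pair had r = 0.616 and 0.279 (exact permutation p = 0.186 and 0.507). DUSP6 and FGF4 had r = 0.549 (permutation p = 0.0154, adjusted p = 0.0257) and rho = 0.486 (p = 0.0362, adjusted p = 0.0603), and r = 0.487 without the 6 and 66 h arrays. Its values within slides were 0.637 and 0.125 (exact permutation p = 0.190 and 0.770). No relation passed for FGF2 with SPRY4 (r = -0.187, permutation p = 0.444, adjusted p = 0.555; rho = -0.160, p = 0.512) or DUSP6 (r = -0.0417, permutation p = 0.865, adjusted p = 0.865; rho = 0.0561, p = 0.819). On the first slide, however, the pairs of FGF2 had r = 0.734 with SPRY4 and 0.735 with DUSP6 (exact permutation p = 0.0819 and 0.0736), the opposite direction for both. Neighbouring time points are not independent samples, and of the 10 within-slide values only that of SPRY4 with FGF4 on the first slide had an unadjusted exact permutation p under 0.05.

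For each gene well above background on all arrays, the genes of most similar course were looked up among 13966 others, as a description over the same 19 arrays and without a test. FGFR3 was most like CCND1, which encodes cyclin D1 (r = 0.967), then SPIB (0.964) and MAD2L2 (0.960). FGFR2 was most like PHLPP2 (0.972), FGFR1 like ANO8 (0.958), FGFR4 like RCN3 (0.955) and SPRY4 like SIX4 (0.947), with IRF2BP2 next (0.946). For FGF4 the nearest was ARFRP1 (0.898), for FGF2 PKP2 (0.884) and for DUSP6 AMER2 (0.806). All these arrays share their 75th percentile scaling and the 3 slides.

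The members were then placed beside 97 other genes of the FGF pathway, of which 96 had a matched probe and 87 could be tested. Over 72 h, 14 of the 87 rose and 28 fell, where 30.9% and 22.4% of all probes did, and their median late minus early change was -0.24 on the log2 scale against 0.13 for all probes. With the slide as a block 2 rose and 6 fell, against 4.71% and 4.47% of all probes. Of the 18 other ligands, 12 could be tested and 4 were well above background on all arrays. FGF12, an intracellular FGF, fell from an early mean of 264 to 116 (adjusted p = 2.71e-07, and 0.245 once slides were blocks), and FGF1 fell from 64.8 to 21.1, its late arrays being near background. FGF3, encoded close to FGF4 and FGF19 in the genome, fell within the first slide from 238 to 119 (adjusted p = 0.0332, and 0.0495 with the spike-in RNA). FGF11 (early and late means 1129 and 1289) and FGF13 (3334 and 3576) had no call, nor did FGF9, FGF16, FGF18, FGF20 and FGF22 over 72 h.

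Among the 21 tested co-receptors, heparan sulphate proteoglycans and their enzymes, 11 fell and 2 rose over 72 h, where 22.4% of all probes fell and 30.9% rose, and with the slide as a block 2 fell (FGFBP3 and NDST1) and 0 rose. The largest falls on all arrays were those of FGFBP3, a secreted FGF carrier (1386 to 353), NDST1, which sulphates heparan chains (18855 to 8219), and SDC1, a syndecan (5339 to 2569). SDC1, whose adjusted p was 0.820 with the slide as a block, fell within the first slide (adjusted p = 0.0250, and 0.0480 with the spike-in RNA), as did FGFBP3 (adjusted p = 0.0380, but 0.118 with the spike-in RNA). Of the 23 relay genes between receptor and ERK, 5 rose and 9 fell over 72 h, against the same 30.9% and 22.4% of all probes, and with the slide as a block 1 rose and 2 fell. The RAS activator SOS1 rose from 125 to 289.9 (adjusted p = 0.0577 with the block), whereas the adaptor GRB2 (3151 to 2058) and HRAS (2756 to 1579) fell, also with the block. No relay gene had a call within the first slide (limma, 3 at an unadjusted p under 0.05), where 15 of 23 slopes were below 0.

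Among the other feedback genes and the transcription factors and targets of the pathway, on the first slide 10 of the 31 tested fell and 1 rose, where 2.4% of all probes fell. Those that fell were the phosphatases DUSP4 (751 to 367) and DUSP5 (1030.3 to 374), the receptor inhibitor IL17RD (3992 to 2247), SPRED2, FLRT2, the ETS factor ETV5 (446 to 297), FOS, FOSL1, IER2 and MYC. The spot of FLRT2 was not well above background at 8, 10 and 12 h. The one that rose was SPRY3, from 117 to 250.3 (adjusted p = 0.0233). With the array median 11 fell (2.85% of all probes), CCND1, ETV1 and SPRY2 entering while DUSP4 and ETV5 missed. With the spike-in RNA 2 fell, IL17RD and FOSL1 (0.641% of all probes). Without 1 array of the 6 in turn, between 0 and 2 of the 31 still passed, so the count depends on having all 6 arrays. The share of all probes that passed without 1 array is not given here, so this drop may hold for all probes alike. On the main scale ETV1 (adjusted p = 0.110) and ETV4 (adjusted p = 0.558) had no call, and neither did SPRY1 (1334 to 1632 from 3 to 12 h) or SPRY2 (3302 to 2236).

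At the end of the series, on the third slide, DUSP5 (296 to 925) and ETV5 (230.4 to 625) rose, both with an adjusted p of 0.0493, where 0.352% of all probes rose. DUSP4 (482 to 931), IL17RD (1662 to 3714) and ETV4 (1035 to 2082) had higher signals at 72 h than at 48 h without passing (adjusted p = 0.0704, 0.0805 and 0.0568). With the spike-in RNA none of the 31 rose, and the slopes of DUSP5 and ETV5 were 0.021 and 0.0084 log2 per hour. On that scale 97.3% of all probes had a slope below 0 on the third slide. Over 72 h, SPRY1 rose from 1220.2 to 1973 and the ETS factor ELK4 from 370.3 to 647, while SPRED1 (1209 to 743), SPSB1 (2672 to 1250.2), PEA15 (2144 to 979), ETV1 (1434 to 1031) and SRF (592 to 176), the partner of ETS factors at CArG boxes, fell. Of these 7 genes, ELK4 and SRF kept a call with the slide as a block (adjusted p = 0.00637 and 0.0112), the other five having an adjusted p between 0.0965 and 0.942.

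**Figure D5:**
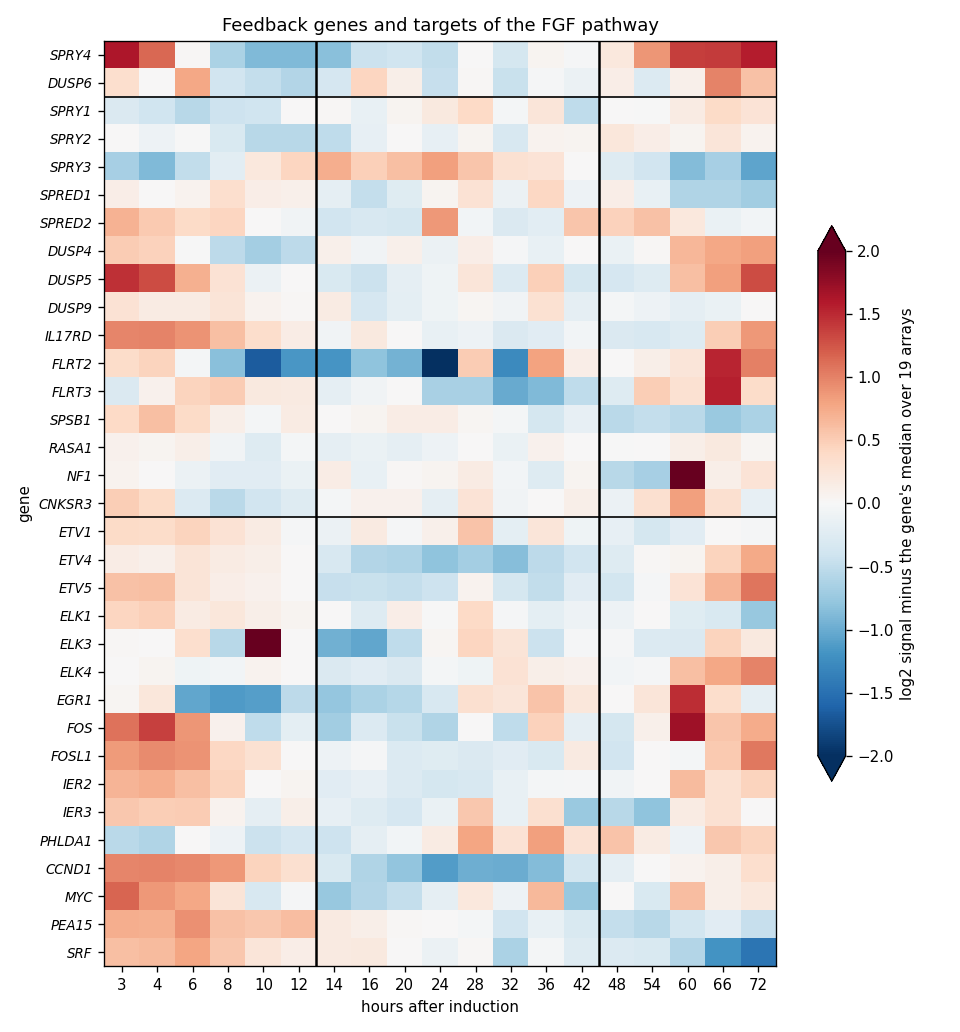
Colour map of the log2 signal minus each gene's median over the 19 arrays, with hours after induction across and genes down: SPRY4 and DUSP6 on top, then 15 other feedback genes and 16 transcription factors and targets, with black vertical lines at the changes of slide. SPRY4, DUSP5, IL17RD, FOS, CCND1 and MYC are red in the first arrays, and the isolated dark cell of NF1 at 60 h is a signal of 283238.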

How the data were processed

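Each of the 19 samples is 1 array of KhES-3 cells, grouped by the hour in its label. The authors deposited the output of Agilent Feature Extraction 10.10.1.1 (per the labels): the background-subtracted, processed intensity of each spot, the median pixel intensities, and flags of 0 or 1, an other kind of column the authors deposited. A deposited table of intensities equals the processed intensity times 1 factor per array. Flagged spots (0.632%) were omitted, and saturation was not flagged anywhere. Precision is limited by the number of arrays. Spots of a probe were averaged, log2 intensities were scaled by the array's 75th percentile, and a gene was read from its brightest probe, its second probe being given where there is one. RefSeq accessions were matched to gene symbols of GRCh38.p14, and coordinates are given for the RefSeq promoters alone.

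Slopes on hours, cubic curves, the slide as a block and slopes within slides were fitted with limma 3.58.1 (R 4.3.3) on 32113 probes, those called well above background by the scanner software in 5 or more samples, with Benjamini-Hochberg adjustment over all of them. Early and late means are those of the arrays at 3, 4 and 6 h and at 60, 66 and 72 h. On simulated data with 200 changed probes of 32113, the slope test found 64 of 100 changes of 1 on the log2 scale and 94 of 100 changes of 2, with 10 false calls among 168. The simulated noise was independent between arrays and held no steps between slides and no curvature. These figures are therefore no measure of the error rate in the data themselves. Tables and permutation tests used Python 3.11.15, numpy 2.4.6, pandas 2.3.3 and scipy 1.17.1.

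The members and lists were chosen with earlier results of these data known. Other pathway genes are named if among the 3 largest late minus early changes of their class with a call over 72 h on all arrays, if they are ETV1, ETV4, ETV5, SPRY1, SPRY2, DUSP4 or IL17RD, or if they are ligands seen on at least 10 arrays. The genes nearest in course are the 3 with the highest Pearson correlation with a member over the 19 arrays. DUSP5, SPRY3, SPRED2, FLRT2, FOS, FOSL1, IER2, MYC and NF1 were named after their values were seen. Alternatives were the array median, the spike-in RNA (7 of 10 levels), normexp (offset 50) on the median pixel intensity followed by quantile normalization, values of the deposited table, filters dropped or applied to every array, log2 hours, slides as blocks, times to 54 h, the mean of all probes, flagged spots kept, and each array left out in turn. Testing curvature alone, the scalings within slides and leaving out single arrays of the first slide were added after seeing the data.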

Additional observations from a re-analysis of the deposited data

How the results depend on the processing

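No paired analysis was possible because there was 1 array per time. Of the 10 genes, 2 rose and 2 fell over 72 h. None rose with the array median, the spike-in RNA or the slide as a block (0), and 0 fell with the block. With normexp and quantile normalization, no filter, the filter on all arrays, the arrays to 54 h or the mean of all probes, 1 fell. Without 1 array in turn, 1 to 3 rose and 1 to 2 fell. FGF2 left the falling genes without the 3, 4, 6, 8, 14, 16, 60, 66 or 72 h array (slopes over all omissions -0.0081 to -0.0057), and SPRY4 left the rising genes without the 60, 66 or 72 h array (0.0177 to 0.0278). FGF4 passed without the 4 h array (0.0046 to 0.0080). The slopes of FGF19 (-0.0011 to 0.0072) and FGFR3 (-0.0060 to 0.00024) changed sign with single arrays. Of the pathway list, 14 rose, but 2 with the median, 1 with the spike-in RNA, 8 in the deposited table, 7 with log2 hours, 2 with the block and 7 to 54 h, and 28 fell, but 6 with the block. Of all probes, 4.71% rose and 4.47% fell with the block. Their shares under the other alternatives to the 72 h fit are not given here, so these lower counts may hold for all probes alike. Within the first slide 10 feedback and target genes fell (2.4% of all probes), and 2 with the spike-in RNA (0.641% of all probes). Without 1 array 0 to 2 fell, the share of all probes not being given here. Within the third slide 2 rose, and 0 with the spike-in RNA, where 97.3% of all probes had a slope below 0.

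Slopes over 72 h changed as follows (log2 per hour). FGF2 missed the threshold with normexp (-0.0037), no filter (-0.0070), the block (-0.0061), the arrays to 54 h (-0.0039) and the mean of its probes (-0.0040), and FGF8 with the block (-0.0026). SPRY4 missed it with the median (0.0157), the spike-in RNA (0.0125), log2 hours (0.128 per doubling), the block (0.0173) and the arrays to 54 h (0.0043), and FGFR4 with the median (0.0026) and the block (0.0081). FGFR1 passed with normexp (0.0085), log2 hours (0.0976) and the mean of its probes (0.0038), and FGFR2 to 54 h (0.0189). The sign turned for FGF4 with the spike-in RNA (-0.0021) and the block (-0.0019), for FGFR1 with the median (-0.0017) and the spike-in RNA (-0.0049), and for FGFR2 with the median (-0.0032), the spike-in RNA (-0.0064) and the block (-0.0107). It turned for FGFR3 with normexp (0.0019), for FGFR4 with the spike-in RNA (-0.00061), and for DUSP6 with the spike-in RNA (-0.0018) and to 54 h (-0.0038). For FGF19 it turned with the median (-0.0040), the spike-in RNA (-0.0072), normexp (-0.0022), the deposited table (-0.0030), log2 hours (-0.117), the block (-0.0057) and to 54 h (-0.0058).

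Within slides, the spike-in RNA turned the slope on the second slide for FGF2 (-0.0067) and FGFR1 (-0.0018), and on the third for FGF4 (-0.0405), FGF19 (-0.0510), FGFR1 (-0.0461), FGFR3 (-0.0369) and DUSP6 (-0.0148). The median turned FGF19 (-0.0071) and FGFR1 (-0.0022) on the third. Without 1 array, first-slide slopes were -0.0201 to 0.0041 for FGFR1 and -0.0157 to 0.0071 for FGFR2.

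The late minus early log2 change was, with the median, -1.01 for FGF2, -0.21 for FGF4, -0.14 for FGFR1, -0.50 for FGFR2, -0.77 for FGFR3 and -0.012 for FGFR4. With the spike-in RNA it was -1.28 for FGF2, -0.48 for FGF4, -2.16 for FGF8, -1.44 for FGF19, -0.42 for FGFR1, -0.77 for FGFR2, -1.05 for FGFR3, -0.29 for FGFR4, -0.12 for SPRY4 and -0.46 for DUSP6. With normexp it was -0.87 for FGF8, 0.52 for FGFR1, 0.13 for FGFR2, -0.16 for FGFR3 and 0.18 for FGFR4. From 3 to 72 h it was -1.68 for FGF19, -0.48 for FGFR2 and -0.039 for SPRY4, and without single arrays -0.29 to -0.016 for FGFR2.

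The correlation of DUSP6 with FGF2 was 0.155 with a line removed, 0.735 and 0.356 within the first and second slides and 0.140 with the median. That of SPRY4 with FGF2 was 0.113, 0.734 within the first slide and -0.044 with the median. Within the first and second slides DUSP6 and FGF4 had 0.637 and 0.125, DUSP6 and SPRY4 had 0.616 and 0.279, and SPRY4 and FGF4 had -0.240 within the second. The causes were not tested. FGF8 and FGF19 were not well above background on 6 and 2 arrays. Of the 3 latest arrays, 1 was well above background for FGF8. Its late minus early changes given above rest on spots near background and are not read as folds.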
